A study of Homo sapiens with 14 samples.

Results

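Aminoacyl-tRNA synthetase genes were followed by RNA-seq in K562, an established leukemia line of human origin that keeps features of red cell precursors. The members were 36 genes named by their older symbols, and all of them were found among the 24729 genes of the read count table. Of these, 20 encode cytosolic enzymes and 16 encode mitochondrial enzymes, whose symbols end in 2. All 36 passed the filter on low counts that left 14406 genes for testing.

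The 14 libraries fell into 5 groups. Cells of 4 groups stably carried a Flag-bio-tagged, catalytically inactive Cas9 (dCas9), which binds DNA without cutting it, and the sample titles also name BirA, a biotin ligase. In sgHS2, sgHBG and sgHS1-5 (3 libraries each) guide RNA directed dCas9 to regulatory elements of the β-globin cluster. The target was a single enhancer in sgHS2, the HBG promoter in sgHBG and the control region in sgHS1-5. The sgGal4 group (3 libraries) carried a guide RNA with no target, and the WT group (2 libraries) was labelled as plain K562. The labels do not say whether a population was a single clone or whether replicates came from separate cultures, so the p-values rest on library-to-library spread, which may be technical, and the action of a guide RNA cannot be told apart from whatever else sets one population apart. In bulk RNA, fewer cells of a type and less RNA per cell cannot be told apart either.

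Each synthetase joins an amino acid to its matching tRNA, which makes the substrate that ribosomes use. The cytosol and the mitochondrion mostly use separate enzymes, all encoded in the nucleus, although KARS and GARS also supply the mitochondrial enzymes from their single genes. In mammalian cells, many cytosolic synthetase genes are known targets of ATF4, the transcription factor of the integrated stress response to amino acid shortage, while WARS is also induced by interferon gamma.

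The libraries held 5694448 to 6773888 counted reads in sgHS1-5 and 9498578 to 11335831 in the other groups. The 9 erythroid markers of K562 (GATA1, TFRC and others) summed to 1259 to 2008 CPM (TMM-scaled counts relative to library depth) across the libraries. The sgGal4 1 library stood apart: 14 of the 36 members differed by more than 1.3-fold between it and sgGal4 2, against 0 between sgGal4 2 and sgGal4 3. To a lesser degree sgHS2 2 did too, with 3 members past 1.3-fold from sgHS2 1 and 1 from sgHS2 3. Between sgHS2 1 and sgHS2 3 there were 0. The sgHS1-5 libraries differed in transcripts of another cell type. MPO, a neutrophil granule enzyme, was at 19.4, 1415 and 264 CPM in sgHS1-5 1, 2 and 3, and at most 0.284 CPM in the other 11 libraries. Counts on sgHS1-5 are therefore also given without sgHS1-5 2 and 3, and values that rest on sgGal4 1 without that library.

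Per transcript length, cytosolic synthetase mRNAs were the more abundant. By mean RPKM (reads scaled to transcript length and library depth, the authors' values) over 14 libraries, SARS (serine) led with 276, followed by WARS (tryptophan) with 245 and AARS (alanine) with 231. The lowest cytosolic members were HARS (histidine) with 23.8, FARSB, the beta subunit of the phenylalanine enzyme, with 36.9, and CARS (cysteine) with 57.5. Among mitochondrial members IARS2 (isoleucine, 52.2 RPKM), RARS2 (arginine, 26.6 RPKM) and VARS2 (valine, 24.0 RPKM) were highest, and MARS2 (methionine, 5.23 RPKM), PARS2 (proline, 6.78 RPKM) and FARS2 (phenylalanine, 8.81 RPKM) were lowest. For 13 amino acids both compartments had a member of the same name, and in every one of these pairs the cytosolic RPKM exceeded the mitochondrial RPKM in each library.

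The cytosolic enzymes were lower in sgHS1-5 than in any other group. Their summed level was 4495 ± 70.2 CPM in sgHS1-5 (SD, n = 3), against 9478 ± 534 CPM in sgGal4 (SD, n = 3) and 10512 ± 124 CPM in WT (SD, n = 2). It was 8566 ± 295 CPM in sgHS2 and 7992 ± 65.7 CPM in sgHBG (SD, n = 3 each). The summed level of the 16 mitochondrial members was 793 ± 31.8 CPM in sgHS1-5, 856 ± 64.0 CPM in sgGal4 and 697 ± 3.45 CPM in WT. Cytosolic reads were thus 5.49 to 5.96 times the mitochondrial reads in sgHS1-5 libraries, against 10.9 to 11.3 times in sgGal4 libraries and 14.9 to 15.3 times in WT libraries, with no overlap.

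**Figure D1:**
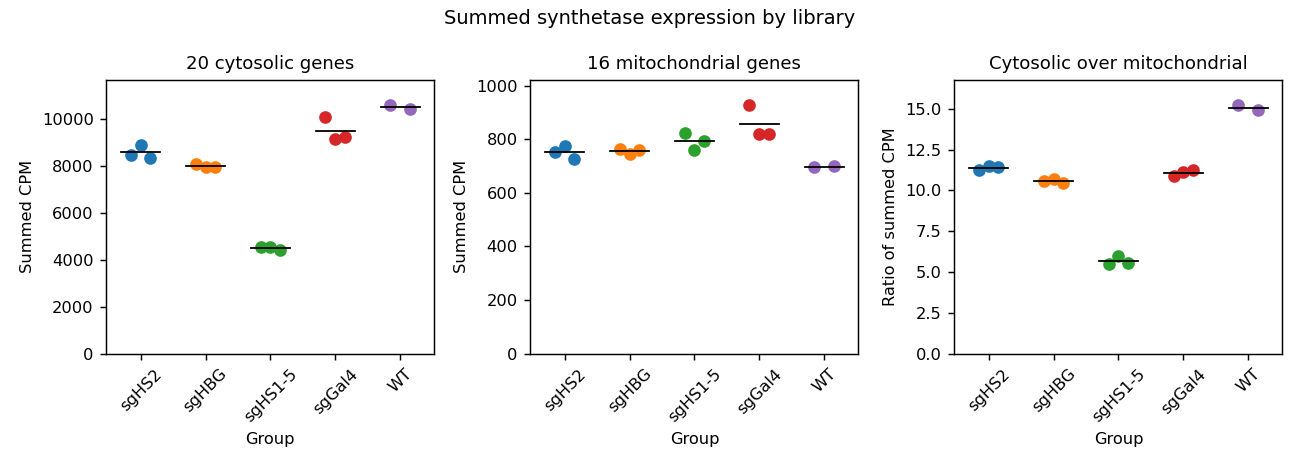
Summed TMM-scaled CPM of the 20 cytosolic genes (left) and the 16 mitochondrial genes (middle), and the ratio of the sums (right), for each library (points) and group mean (lines). The sgHS1-5 libraries lie between 4414 and 4541 CPM on the left, below all others, while their mitochondrial sums of 761 to 825 CPM lie within the range of the other libraries.

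Against sgGal4, 15 of 20 cytosolic members fell in sgHS1-5 and DARS rose, by edgeR's quasi-likelihood test at a Benjamini-Hochberg adjusted p under 0.05. Among all genes tested 40.4% were called in this comparison, with 20.3% higher and 20.2% lower. Of the 15, 8 were at least 2-fold lower, a class that held 6.05% of all genes. The median log2 difference of the cytosolic members was -0.77, against 0.02 over all genes. Of the 16 mitochondrial members 5 fell and 3 rose, with a median of -0.18, and none was 2-fold lower.

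The enzymes for serine, alanine and tryptophan fell furthest. SARS had 202, 196 and 201 CPM in sgHS1-5, against 1045, 759 and 764 CPM in sgGal4, a log2 difference of -2.10 ± 0.13 (SE; adjusted p = 3.48e-07). AARS had 354, 368 and 354 CPM in sgHS1-5, against 1777, 1350 and 1377 CPM in sgGal4, a log2 difference of -2.07 ± 0.11 (SE; adjusted p = 1.16e-07). The groups were far apart for both genes, and sgGal4 1 was the highest library for each. WARS had 147, 188 and 144 CPM in sgHS1-5, against 585, 691 and 702 CPM in sgGal4, a 4.13-fold lower level (log2 difference -2.05 ± 0.12 SE; adjusted p = 2.28e-07). For WARS sgGal4 1 was instead the lowest of its group.

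MARS, which charges both the initiator and the elongator methionine tRNAs, had 182, 208 and 189 CPM in sgHS1-5, against 716, 661 and 652 CPM in sgGal4 (log2 difference -1.81 ± 0.09 SE; adjusted p = 5.74e-08). GARS (glycine) had 167, 190 and 166 CPM in sgHS1-5, against 521, 441 and 426 CPM in sgGal4 (-1.41 ± 0.10; adjusted p = 1.51e-06). YARS (tyrosine) had 223, 224 and 208 CPM in sgHS1-5, against 586, 494 and 486 CPM in sgGal4 (-1.26 ± 0.10; adjusted p = 2.89e-06). In all 3 genes the highest sgHS1-5 library was sgHS1-5 2, and every sgHS1-5 library was below every sgGal4 library. CARS (log2 difference -1.82) and EPRS (-1.32), a fused enzyme for glutamate and proline, complete the 8 that were at least 2-fold lower. The other 7 that fell had log2 differences between -0.94 for RARS (arginine) and -0.26 for KARS (lysine), with QARS (glutamine, -0.83), TARS (threonine, -0.71), IARS (isoleucine, -0.56), LARS (leucine, -0.55) and NARS (asparagine, -0.52) in between.

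Not every cytosolic member fell. DARS, for aspartate, had 143, 163 and 150 CPM in sgHS1-5, against 98.4, 120 and 122 CPM in sgGal4 (0.42 ± 0.10; adjusted p = 0.00578). FARSA (log2 difference 0.20), FARSB (0.01), VARS (valine, 0.20) and HARS (0.13) did not pass the test.

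**Figure D2:**
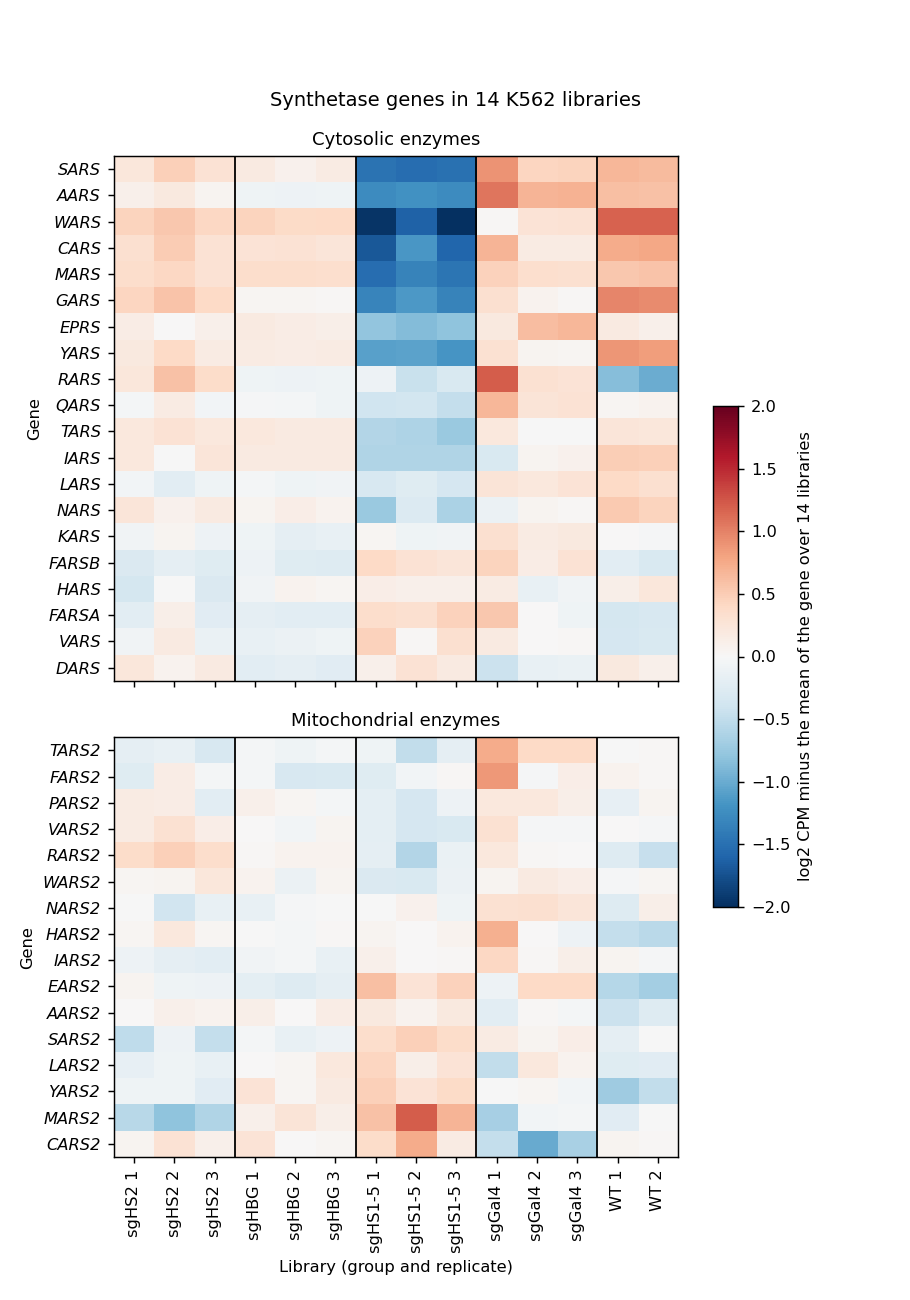
TMM-scaled log2 CPM of each member minus its mean over 14 libraries, for cytosolic genes (top) and mitochondrial genes (bottom), ordered by their sgHS1-5 against sgGal4 difference. Columns are libraries and black lines part the groups. The sgHS1-5 columns are blue (low) for the upper cytosolic genes, while the mitochondrial block shows a mixture of both colours.

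The 3 mitochondrial members that rose in sgHS1-5 were CARS2, MARS2 and YARS2. CARS2 (cysteine) had 23.5, 30.5 and 20.3 CPM in sgHS1-5, against 13.1, 9.0 and 11.6 CPM in sgGal4 (1.15 ± 0.17; adjusted p = 0.000283). MARS2 (methionine) had 16.8, 25.9 and 18.0 CPM in sgHS1-5, against 7.09, 10.7 and 10.9 CPM in sgGal4 (1.07 ± 0.19; adjusted p = 0.00109). YARS2 (tyrosine) had 31.3, 27.0 and 29.2 CPM in sgHS1-5, against 22.3, 23.1 and 21.7 CPM in sgGal4 (0.38 ± 0.11; adjusted p = 0.0131). No sgHS1-5 library overlapped sgGal4 for these genes, and CARS2 and MARS2 were highest in sgHS1-5 2. The 5 that fell were TARS2 (log2 difference -0.76), PARS2 (-0.39), VARS2 (-0.37), RARS2 (-0.37) and WARS2 (-0.36).

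Within amino acid pairs, the cytosolic log2 difference lay below the mitochondrial one in 10 of 13 pairs, with a median gap of -0.86. The count was also 10 of 13 in sgGal4 against WT (median gap -0.32) and in sgHBG against WT (-0.50). It was 9 of 13 in sgHS2 against WT (-0.22), and against sgGal4 it was 6 in sgHS2 and 8 in sgHBG. In sgHS1-5 against sgGal4 the gap was -2.97 for cysteine, where CARS fell and CARS2 rose. It was -2.88 for methionine, where MARS fell and MARS2 rose. The RPKM of CARS was 1.29 times that of CARS2 in sgHS1-5, against 9.21 times in sgGal4. It was 7.69 times in WT, 5.29 times in sgHS2 and 5.15 times in sgHBG. Of the groups, sgGal4 had the lowest CARS2 level (mean 11.2 CPM, against 18.6 CPM in WT). Likewise MARS was at 7.09 times the RPKM of MARS2 in sgHS1-5, against 51.6 times in sgGal4. For threonine the gap was 0.05, and for valine (0.57) and histidine (0.34) the cytosolic value was the higher one.

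In sgHS1-5 against sgGal4, members fell both inside and outside the multisynthetase complex, a cytosolic assembly of several synthetases on scaffold proteins. Among all genes tested 20.2% were lower and 6.05% were at least 2-fold lower. Among the 8 synthetases of the complex 7 fell (2 of them at least 2-fold) with a median of -0.69. Among the other 12 cytosolic members 8 fell (6 at least 2-fold) with a median of -0.98. The scaffold genes AIMP1 (log2 difference -0.28), AIMP2 (-0.32) and EEF1E1 (-0.36) did not pass the test. Of 8 tested genes for mitochondrial aminoacylation partners 1 rose and 2 fell, near the share of all genes called (40.4%, with 20.3% higher and 20.2% lower). TRNT1, which adds the CCA end to tRNAs, rose (0.51). TSFM, a mitochondrial elongation factor, fell (-0.67), as did QRSL1, a subunit of the mitochondrial glutamine amidotransferase (-0.32).

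The low levels were present in sgHS1-5 1, which had the fewest myeloid transcripts of the 3 sgHS1-5 libraries. Its MPO level was still above that of every library of the other groups. The 6 myeloid markers summed to 213, 2090 and 553 CPM in sgHS1-5, against 332 to 364 CPM in sgGal4, and 4 of 6 rose while CD68 fell. The 6 lymphoid markers summed to 322 to 380 CPM in sgHS1-5, against 133 to 240 CPM in sgGal4, and MS4A1, a B cell marker at 0 in the other groups, was at 2.43, 38.9 and 9.60 CPM. The 5 megakaryocyte markers summed to 87.8 to 129.6 CPM in sgHS1-5, against 52.8 to 65.8 CPM in sgGal4, and ITGA2B (adjusted p = 0.000439) and ITGB3 (adjusted p = 0.0335) rose. The fibroblast markers summed to 17.5 to 22.4 CPM in sgHS1-5, against 19.6 to 21.3 CPM in sgGal4, with LUM at 0 in every library. Within that sum COL1A1 fell (log2 difference -0.60), while PDGFRB (2.54) and COL3A1 (1.47) rose to means of 2.06 and 2.23 CPM. The epithelial markers summed to 702 to 1050 CPM in sgHS1-5, against 801 to 1431 CPM in sgGal4, with KRT5 at 0 in every library. Among them EPCAM fell (-0.90). Without sgHS1-5 2 and 3, 12 cytosolic members were lower and none was higher, 1 mitochondrial member was lower and 3 were higher, where 17.2% of all genes were called. In that fit SARS (log2 difference -2.08), AARS (-2.08), WARS (-2.16), MARS (-1.90), GARS (-1.47) and YARS (-1.22) were still called, with the lone sgHS1-5 library assumed to vary like the other groups. DARS, KARS, RARS, IARS, PARS2, RARS2, VARS2 and WARS2 then lost their calls, while CARS2 (1.08), MARS2 (0.80) and YARS2 (0.49) remained higher. Without sgGal4 1, 15 cytosolic members were lower and 2 were higher, where 46% of all genes were called, and RARS was at -0.56. The part of the myeloid, lymphoid, megakaryocyte, fibroblast and epithelial markers in the result was not tested.

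**Figure D3:**
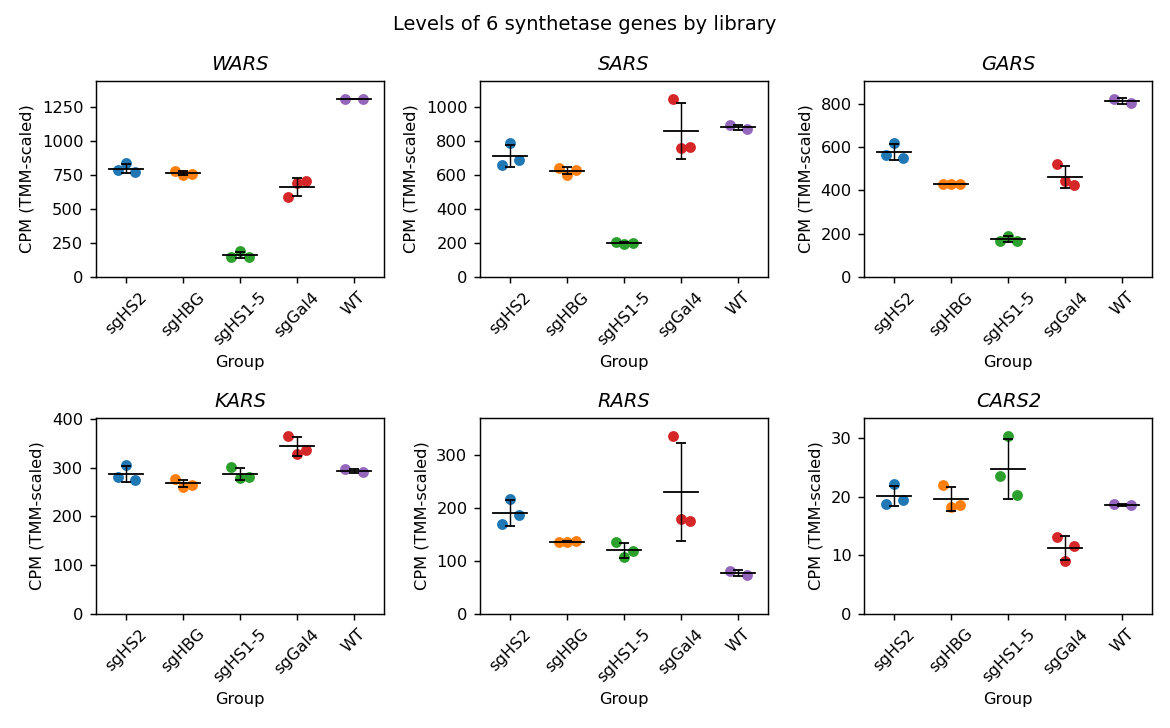
TMM-scaled CPM of 6 members in each library (points), with the group mean (line) and SD (bars) on linear axes. WARS, SARS and GARS are lowest in sgHS1-5, KARS lies between 261 and 366 CPM, RARS is lowest in WT and has one high sgGal4 library at 337 CPM, and CARS2 is lowest in sgGal4.

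The sgHS1-5 cells were also compared directly with the other cells that carried a targeting guide RNA. Against sgHS2, 13 cytosolic members fell and 3 rose, where 38.9% of all genes were called (20.4% higher and 18.5% lower). Against sgHBG, 13 fell and 4 rose, where 25.2% of all genes were called (12.4% higher and 12.8% lower). WARS was 4.98-fold lower in sgHS1-5 than in sgHS2 (log2 difference -2.32 ± 0.12 SE; adjusted p = 1.06e-07) and 4.77-fold lower than in sgHBG (-2.25 ± 0.12; adjusted p = 2.03e-07). MARS was 3.46-fold lower than in sgHS2 (adjusted p = 9.2e-08) and 3.45-fold lower than in sgHBG (adjusted p = 1.83e-07). AARS, CARS, GARS, SARS and YARS were also at least 2-fold lower than in sgHS2, which made 7 members where 5.6% of all genes were, and at least 2-fold lower than in sgHBG, where 3.89% of all genes were.

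Some members instead rose in sgHS1-5 against these cells. MARS2 was 2.83-fold higher than in sgHS2 (1.50 ± 0.20; adjusted p = 0.000102) and 1.62-fold higher than in sgHBG (0.69 ± 0.19; adjusted p = 0.0176). FARSB was 1.46-fold higher than in sgHS2 (adjusted p = 0.000938) and 1.43-fold higher than in sgHBG (adjusted p = 0.00268), and FARSA, the other subunit of that enzyme, was 1.39-fold and 1.49-fold higher. Mitochondrial members numbered 5 higher and 3 lower against sgHS2, and 3 higher and 0 lower against sgHBG; for sgHBG, WARS2 had a log2 difference of -0.24 and RARS2 one of -0.34 without passing the test. Without sgHS1-5 2 and 3, 11 cytosolic members were lower and 2 higher against sgHS2, where 18.6% of all genes were called, and 11 were lower and 2 higher against sgHBG, where 9.55% were. WARS was then at -2.43 against sgHS2 and at -2.37 against sgHBG. Of the members named for these comparisons, FARSA lost its call against both groups and MARS2 against sgHBG (0.43; adjusted p = 0.307). These comparisons share the sgHS1-5 libraries with those against sgGal4.

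Against WT, 13 cytosolic members fell and 4 rose in sgHS1-5, where 42.9% of all genes were called (23.4% higher and 19.5% lower). Of the 13, 9 were at least 2-fold lower, a class that held 7.75% of all genes. WARS was at 147, 188 and 144 CPM in sgHS1-5, against 1307 and 1306 CPM in WT, an 8.18-fold lower level (log2 difference -3.03 ± 0.13 SE; adjusted p = 7.66e-09). GARS was 4.67-fold lower (adjusted p = 2.17e-08), SARS 4.41-fold (adjusted p = 1.86e-07), MARS 3.98-fold (adjusted p = 1.59e-08), YARS 3.93-fold (adjusted p = 5.5e-08) and AARS 3.56-fold (adjusted p = 1.99e-07). CARS (log2 difference -2.22), IARS (-1.08) and NARS (-1.02) were the others past 2-fold.

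No mitochondrial member fell against WT and 7 of 16 rose in sgHS1-5. Among all genes tested 42.9% were called in this comparison, with 23.4% higher and 19.5% lower. EARS2, for glutamate, had 55.9, 44.9 and 51.0 CPM in sgHS1-5, against 24.9 and 23.0 CPM in WT (1.08 ± 0.16; adjusted p = 0.000143). YARS2 had 31.3, 27.0 and 29.2 CPM in sgHS1-5, against 13.8 and 16 CPM in WT (0.97 ± 0.12; adjusted p = 5.55e-05). MARS2 (log2 difference 0.97), HARS2 (0.54), LARS2 (0.51), AARS2 (0.50) and SARS2 (0.49) also rose. The cytosolic members that rose were FARSA (0.71), RARS (0.65), VARS (0.60) and FARSB (0.57). Without sgHS1-5 2 and 3, 12 cytosolic members were lower and 2 higher and 3 mitochondrial members were higher, where 26.7% of all genes were called. MARS2, HARS2, LARS2, SARS2, FARSA, RARS and QARS then lost their calls. The myeloid markers summed to 213, 2090 and 553 CPM in sgHS1-5, against 121 and 125 CPM in WT, and their part in these differences was not tested.

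The control populations themselves differed. In sgGal4 against WT, 6 cytosolic members fell and 6 rose, and 1 mitochondrial member fell and 5 rose, where 42.4% of all genes were called (22.7% higher and 19.6% lower). WARS had 585, 691 and 702 CPM in sgGal4, against 1307 and 1306 CPM in WT (-0.99 ± 0.12; adjusted p = 4.75e-05). GARS had 521, 441 and 426 CPM in sgGal4, against 822 and 803 CPM in WT (-0.81 ± 0.11; adjusted p = 8.16e-05). YARS had 586, 494 and 486 CPM in sgGal4, against 871 and 846 CPM in WT (-0.72 ± 0.11; adjusted p = 0.000201). For all 3 the WT libraries were the higher and the groups did not overlap. IARS (log2 difference -0.52), NARS (-0.50), CARS2 (-0.74) and DARS (-0.38) fell as well. SARS (-0.04), AARS (0.23) and MARS (-0.18) did not pass the test. The myeloid markers summed to 332 to 364 CPM in sgGal4, against 121 and 125 CPM in WT. The fibroblast markers summed to 19.6 to 21.3 CPM in sgGal4, against 4.83 and 5.10 CPM in WT, with COL1A1 (log2 difference 2.32) and COL1A2 (2.19) higher. EPCAM, an epithelial marker, was also higher (0.67). The part of these markers in the differences was not tested.

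RARS rose furthest in sgGal4 against WT, with 337, 178 and 174 CPM in sgGal4, against 80.3 and 72.8 CPM in WT (1.58 ± 0.25; adjusted p = 0.000276). The value in sgGal4 1 was the highest of all 14 libraries, and without it the log2 difference was 1.20 (adjusted p = 4e-06). EARS2 had 34.5, 48.5 and 49.0 CPM in sgGal4, against 24.9 and 23.0 CPM in WT (0.88 ± 0.15; adjusted p = 0.000576). HARS2 (0.75, with 73.8, 45.5 and 42.0 CPM in sgGal4, against 32.5 and 31.2 CPM in WT), YARS2 (0.58), FARSB (0.56) and TARS2 (0.51) followed, then FARSA, RARS2, VARS, QARS and EPRS at 0.36 to 0.52. Without sgGal4 1, HARS2 (0.46), FARSA (0.30) and QARS (0.22) had smaller differences and were still called.

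In sgHS2 against sgGal4, 13 members were called (3 higher and 10 lower) where 30.1% of all genes were (14.5% higher and 15.6% lower). In sgHBG against sgGal4, 12 were called (1 higher and 11 lower) where 24.7% of all genes were (12.1% higher and 12.6% lower). AARS fell in both, with 914, 974 and 884 CPM in sgHS2 and 798, 787 and 803 CPM in sgHBG, against 1777, 1350 and 1377 CPM in sgGal4. Its log2 difference was -0.70 ± 0.11 in sgHS2 (SE; adjusted p = 0.000404) and -0.92 ± 0.11 in sgHBG (SE; adjusted p = 9.54e-05). TARS2 (threonine) had 64.8, 66.6 and 59.0 CPM in sgHS2 and 71.5, 69.4 and 71.5 CPM in sgHBG, against 124, 96.7 and 97.2 CPM in sgGal4, with log2 differences of -0.74 ± 0.12 (adjusted p = 0.000796) in sgHS2 and -0.58 ± 0.12 (adjusted p = 0.00529) in sgHBG. The AARS and TARS2 levels of sgGal4 lay above those of both targeting groups without overlap, and sgGal4 1 was the highest library for both. WT libraries held 73.2 and 74.8 CPM of TARS2, so for TARS2 sgGal4 was the group that stood high. They held 1281 and 1274 CPM of AARS, above both targeting groups.

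CARS2 rose in both, with 18.8, 22.1 and 19.4 CPM in sgHS2 and 21.9, 18.3 and 18.6 CPM in sgHBG, against 13.1, 9.0 and 11.6 CPM in sgGal4. The log2 differences were 0.85 ± 0.17 in sgHS2 (adjusted p = 0.00245) and 0.81 ± 0.17 in sgHBG (adjusted p = 0.00458). WT libraries held 18.8 and 18.5 CPM of CARS2, so sgGal4 was the group that stood low. FARSB fell by 0.53 on the log2 scale in sgHS2 (adjusted p = 0.00138) and by 0.50 in sgHBG (adjusted p = 0.00328), and LARS fell by 0.36 (adjusted p = 0.00435) and 0.32 (adjusted p = 0.0128). Mean FARSB was 67.4 CPM in sgHS2, 69.2 CPM in sgHBG and 66.4 CPM in WT, against 97.7 CPM in sgGal4. For FARSB sgGal4 thus stood above WT as well. In sgHS2 SARS2 (-0.47), NARS2 (-0.46) and IARS2 (-0.36) also passed as lower and DARS (0.39) and GARS (0.32) as higher. In sgHBG SARS (-0.46), RARS (-0.75), EARS2 (-0.47) and FARS2 (-0.59) passed as lower. Without sgGal4 1, FARS2 lost its call (-0.28; adjusted p = 0.14), while RARS (-0.37) and SARS (-0.29) in sgHBG and QARS (-0.24) and IARS2 (-0.23) in sgHS2 were smaller and still called. EPRS, QARS and KARS passed as lower in both, at -0.26 to -0.46. The difference between sgHS2 and sgHBG was not tested, and both comparisons share the sgGal4 libraries. The megakaryocyte markers summed to 69.9 to 82.7 CPM in sgHS2 and 242 to 246 CPM in sgHBG, against 52.8 to 65.8 CPM in sgGal4, and ITGA2B was 4.34-fold higher in sgHBG. The lymphoid markers summed to 119.9 to 161 CPM in sgHS2 and 374 to 386 CPM in sgHBG, against 133 to 239.7 CPM in sgGal4, and PTPRC was 1.89-fold higher in sgHBG. The myeloid markers summed to 157 to 182 CPM in sgHS2 and 218 to 238 CPM in sgHBG, against 332 to 364 CPM in sgGal4, and the fibroblast markers to 8.57 to 9.67 CPM in sgHS2 and 11.1 to 13.0 CPM in sgHBG, against 19.6 to 21.3 CPM in sgGal4. The part of these markers in the differences was not tested.

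Against WT, 6 members rose and 6 fell in sgHS2, where 33.1% of all genes were called (17.6% higher and 15.5% lower). In sgHBG 4 rose and 9 fell, where 33.6% were called (17.7% higher and 15.9% lower). WARS had 785, 833 and 767 CPM in sgHS2 and 780, 747 and 758 CPM in sgHBG, against 1307 and 1306 CPM in WT (log2 differences -0.72 ± 0.12 in sgHS2, adjusted p = 0.000763, and -0.78 ± 0.12 in sgHBG, adjusted p = 0.000405). GARS (-0.49 in sgHS2 and -0.92 in sgHBG), YARS (-0.60 and -0.70), LARS (-0.48 and -0.43) and AARS (-0.47 and -0.68) fell in both as well. RARS rose in both (1.32 and 0.83), as did RARS2 (0.76 and 0.41), AARS2 (0.41 and 0.44) and YARS2 (0.46 and 0.76). In sgHS2, HARS fell (-0.38) and EARS2 (0.58) and HARS2 (0.60) rose. In sgHBG, SARS (-0.50), CARS (-0.50), NARS (-0.40) and DARS (-0.36) fell. No mitochondrial member fell in either group. In WT the megakaryocyte markers summed to 42.8 and 44.1 CPM and the lymphoid markers to 164 and 176 CPM, and their part was not tested here either.

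**Figure D4:**
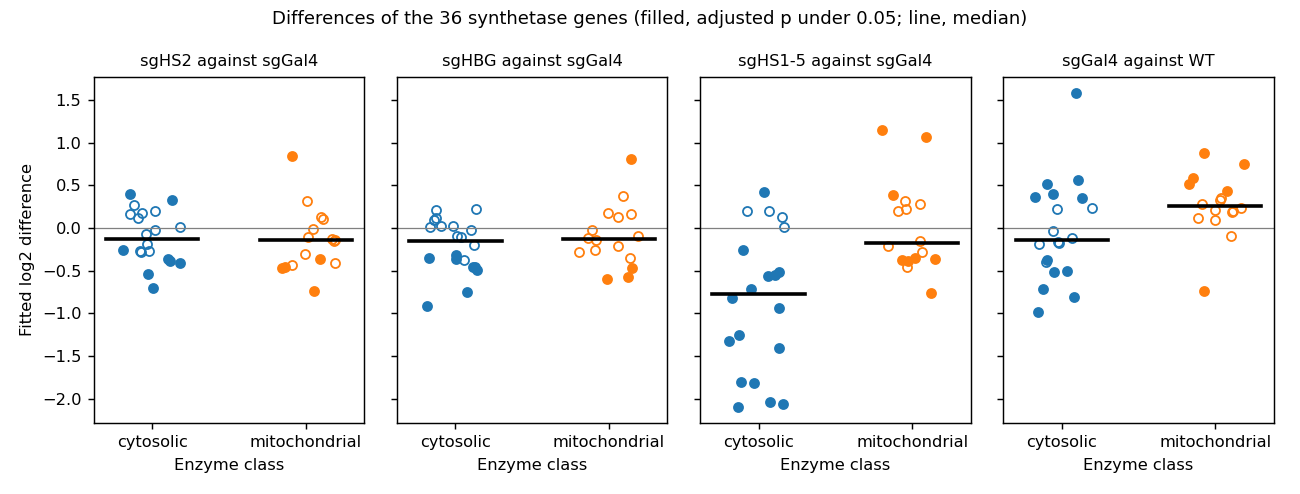
Fitted log2 differences of the 20 cytosolic and 16 mitochondrial members in 4 comparisons; filled points passed an adjusted p of 0.05 and lines are medians. The cytosolic points of sgHS1-5 against sgGal4 reach -2.10 with a median of -0.77, while the medians of both classes lie between -0.18 and 0.25 in the other cases shown.

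Many other genes known as targets of ATF4 were low in the same libraries. The list of 34 genes holds no synthetase but includes ATF4 itself. Of these, 29 fell (18 of them at least 2-fold) and none rose in sgHS1-5 against sgGal4, with a median log2 difference of -1.04. Among all genes tested 40.4% were called, with 20.2% lower and 6.05% at least 2-fold lower. ASNS, the asparagine synthetase, had 72.6, 88.9 and 68.4 CPM in sgHS1-5, against 1198, 815 and 786 CPM in sgGal4 (-3.61 ± 0.17; adjusted p = 4.4e-08). CTH, which makes cysteine from cystathionine (-2.28), CHAC1, which degrades glutathione (-3.39), and the kinase-like regulator TRIB3 (-1.89) also fell. Transcripts of ATF4, counted in the list, were at 227, 377 and 236 CPM in sgHS1-5, against 1059, 520 and 527 CPM in sgGal4. The list was chosen with earlier results of these data known, and the activity of ATF4 was not tested.

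The same list gave 8 higher and 2 lower genes in sgHS2 and 6 higher and 3 lower in sgHBG against sgGal4, where 30.1% and 24.7% of all genes were called. It gave 2 higher and 18 lower in sgGal4 against WT, where 42.4% of all genes were called (19.6% lower). In sgHS1-5 against WT it gave 0 higher and 31 lower, where 42.9% of all genes were called (19.5% lower). Without sgHS1-5 2 and 3, 28 fell against sgGal4 and none rose, where 17.2% of all genes were called. Of 20 interferon gamma targets, 7 rose and 4 fell in sgHS1-5 against sgGal4 beside the 40.4% of all genes called, and 8 rose and 2 fell in sgGal4 against WT beside 42.4%, while WARS, the synthetase known to respond to that cytokine, fell in both comparisons.

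The promoter windows were read for the letters TGATGNAA of the amino acid response element, which are bound by ATF4 with a C/EBP partner. RefSeq windows (GRCh38.p14, from 250 bases before to 50 after the start) matched 30 of 36 members, 16 cytosolic and 14 mitochondrial. DARS, LARS, VARS, YARS, AARS2 and VARS2 had no entry. Some genes have 2 windows, and a gene was counted when any window held the letters on either strand. This was so for 7 of 16 cytosolic genes (43.8%), for 1 of 14 mitochondrial genes (7.14%) and for 4.46% of all 27305 genes with a window. It was also so for 9 of the 28 ATF4 list genes with an entry (32.1%). The sites are shown because these 7 cytosolic members all fell in sgHS1-5, where 15 of 20 cytosolic members fell against sgGal4. The match is in capitals, 5′ to 3′ on the strand of the gene.
AARS (chr16:70289676-70289703, minus strand): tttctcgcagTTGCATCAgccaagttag
CARS (chr11:3057408-3057435, minus strand): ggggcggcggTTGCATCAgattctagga
GARS (chr7:30594835-30594862, plus strand): tacgcggcgaTTTCATCAtgctccgagc
IARS (chr9:92293693-92293720, minus strand): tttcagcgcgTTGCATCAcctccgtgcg
MARS (chr12:57488054-57488081, plus strand): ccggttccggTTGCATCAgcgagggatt
NARS (chr18:57621805-57621832, minus strand): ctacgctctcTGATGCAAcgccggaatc
TARS (chr5:33440957-33440984, plus strand): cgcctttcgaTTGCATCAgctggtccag
YARS2 (chr12:32756077-32756104, minus strand): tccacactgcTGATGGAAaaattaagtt
In NARS and YARS2 the capitals read TGATGNAA, and in the other genes they read its reverse complement. A match of letters is a description of the window, not a bound site. Whether ATF4 acted on these genes was not tested.

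The 7 cytosolic members with the letters had a median log2 difference of -1.41 in sgHS1-5 against sgGal4 and of -1.83 against WT. Of the 9 without them, 6 fell against sgGal4 with a median of -0.83. Against WT, 4 of these fell and 3 rose, with a median of -0.06. The 4 with no entry had medians of -0.18 against sgGal4 and -0.31 against WT, and 2 fell and 1 rose in each. SARS, which fell furthest against sgGal4, and WARS, which fell furthest against WT, had no match in these windows. YARS2, the mitochondrial member with a match, rose (0.38) in sgHS1-5 against sgGal4. In sgHS2 against sgGal4, 1 of the 7 cytosolic members with the letters fell and 1 rose, with a median of 0.17. Of the 9 without them 4 fell, with a median of -0.27. In sgHBG against sgGal4, 1 of the 7 fell (median -0.02) and 6 of the 9 fell (median -0.38). The other letters searched on both strands were CACGTG, bound by MYC and related factors, found for 1 cytosolic gene (IARS), 3 mitochondrial genes (CARS2, EARS2 and MARS2) and 8.77% of all genes with a window, and GCATGC, the core read by NRF1, found for 1 cytosolic gene (CARS), 3 mitochondrial genes (MARS2, NARS2 and YARS2) and 8.8% of all genes with a window.

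**Figure D5:**
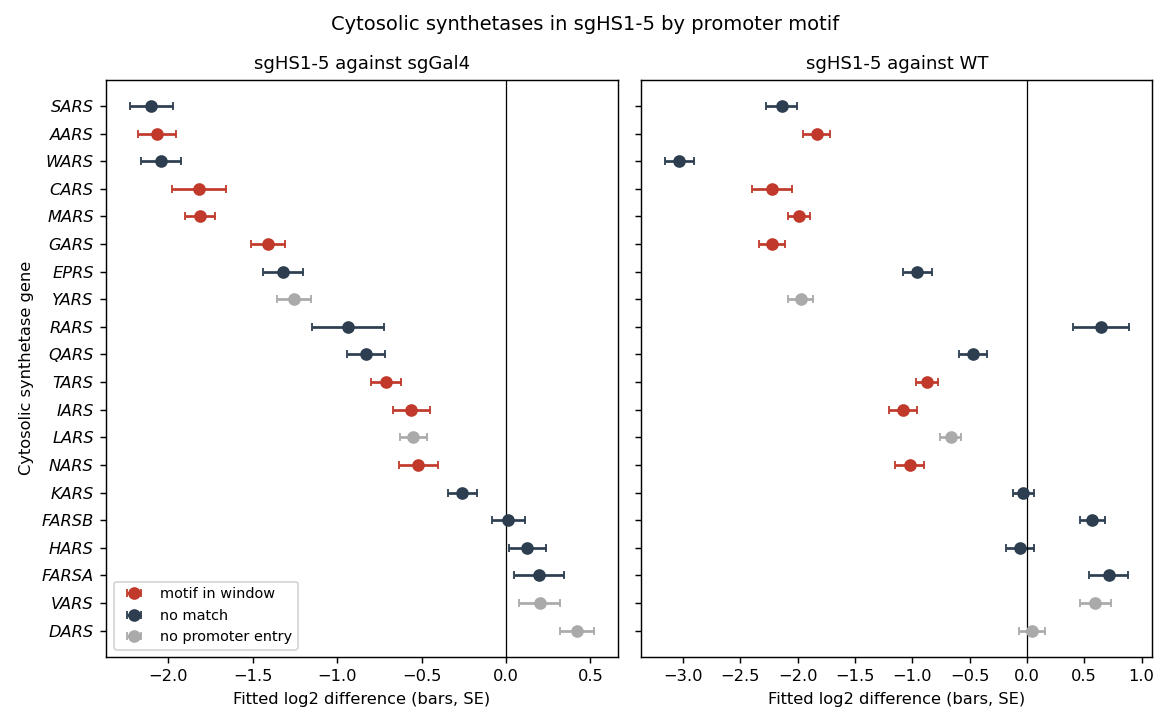
Fitted log2 differences (points) with their SE (bars) of the 20 cytosolic members in sgHS1-5 against sgGal4 (left) and against WT (right). Colours show whether the RefSeq promoter window holds the letters of the amino acid response element. All 7 genes with the match lie below 0 in both panels, while genes without it range from -2.10 to 0.20 against sgGal4.

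Some members overlap other coding genes in RefSeq, and the library kit does not mark strand, so reads in shared stretches cannot be told apart. CARS2 overlaps ING1, which was not called in sgHS1-5 against sgGal4 (log2 difference 0.16; adjusted p = 0.32). YARS overlaps S100PBP (-0.01; adjusted p = 0.938). MARS overlaps ARHGAP9 (0.28; adjusted p = 0.409) and DDIT3, a member of the ATF4 list that fell (-1.68; adjusted p = 0.000566). EARS2 overlaps GGA2, which rose in sgHS1-5 against sgGal4 (0.40; adjusted p = 0.0314). FARS2 overlaps LYRM4, which fell against sgGal4 in sgHS1-5 (-0.96; adjusted p = 0.00695), in sgHS2 (-0.87; adjusted p = 0.0144) and in sgHBG (-0.91; adjusted p = 0.014), where FARS2 was called lower. LYRM4 had 132 CPM in sgGal4 1, against 65.6 and 59.9 CPM in the other sgGal4 libraries. In sgGal4 against WT, ING1 rose (0.66) where CARS2 fell.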

How the data were processed

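The members and gene lists were chosen with earlier results of these data known. The authors deposited raw read counts per gene, and RPKM values scaled by the authors to length and depth. TopHat, Cufflinks, DESeq and the build hg19 are named per the submitters' processing notes, and their versions, the annotation and the counting tool are not given in the sources used here. Libraries were made with the TruSeq RNA v2 kit, per the labels' protocols.

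Counts of all 14 libraries were fitted in edgeR 4.0.16 (R 4.3.3) with 1 mean per group, filterByExpr (minimum count 10, minimum total 15), TMM factors and the quasi-likelihood F test, and p-values were adjusted by the Benjamini-Hochberg method across the 14406 genes, with calls made under 0.05. There were 9 residual degrees of freedom. The SE is the absolute log2 difference divided by the square root of F. In each comparison up to 6 called members per direction with the lowest p were given in full, except that some are given by their log2 difference alone. The comparisons of sgHS1-5 with sgHS2 and sgHBG were added after the data had been seen. RPKM values were used for levels between genes.

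Alternatives were RLE factors, no filter, a filter of 1 CPM in 3 libraries, DESeq2 1.42.0, limma 3.58.1 voom, limma-trend on log2(RPKM + 1) or log2(RPKM + 0.1), only the 2 groups compared, a replicate block and libraries left out. The procedure was tested on simulated data.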

Additional observations from a re-analysis of the deposited data

How the results depend on the processing

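The number of members called stayed within 1.5 times the reported number under RLE factors, other filters, DESeq2, voom, limma-trend on RPKM and the replicate block; with the block it was 23 in sgHS1-5 against sgGal4, 12 in sgHS2 and 10 in sgHBG. Of 26 pairs of libraries with the same number across groups, 1 had deviations from the group means correlated above 0.1 (r from -0.523 to 0.349). Both extremes were between sgHS2 and sgGal4 libraries. With 2 or 3 libraries per group this check cannot decide whether libraries were paired. With only the 2 groups compared, the members called and the share of all genes called were 14 and 17.1% in sgHS1-5, 4 and 17.7% in sgHS2 and 4 and 16% in sgHBG against sgGal4, 8 and 26.3% in sgGal4 against WT, and 26 and 72.1% in sgHBG against WT. Without sgGal4 1 and sgHS2 2 they were 22 and 42.1% in sgHS2 against sgGal4, and against WT 28 and 57.3% in sgGal4, 20 and 52.4% in sgHS2 and 20 and 55.5% in sgHBG. The members called thus moved along with the calls over all genes. Leaving out any 1 of the 14 libraries gave 9 to 20 members in sgHS2 against sgGal4 (20 without sgGal4 1, where 38% of all genes were called) and 6 to 12 in sgHBG against sgGal4 (6 without sgHBG 2 or sgHBG 3). Against WT it gave 11 to 26 in sgGal4, 6 to 20 in sgHS2 and 6 to 18 in sgHBG, each lowest without WT 1, with 20 in sgHS2 without sgGal4 1, where 49% of all genes were called. The cause of these shifts was not tested.

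The cytosolic median minus the mitochondrial median stayed between -0.67 and -0.55 in sgHS1-5 against sgGal4 over all these settings. No member that was called in a comparison reversed its sign in any of the 26 alternative settings. Among members not called, FARSB (0.01) and HARS2 in sgHS1-5 against sgGal4 and SARS (-0.04) in sgGal4 against WT did reverse in at least 1 setting. With 2 or 3 libraries per group, smaller differences may go undetected.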
